A study of Mus musculus with 2 samples.

Results

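The platelet-derived growth factor (PDGF) family was followed through the cells of healed mouse skin wounds. Its 6 members, the ligand genes *Pdgfa*, *Pdgfb*, *Pdgfc* and *Pdgfd* and the receptor genes *Pdgfra* and *Pdgfrb*, were taken by symbol from the 27998 genes of the count matrices. All 6 were present.

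PDGF chains pair into dimers that bind and pair receptor chains at the cell surface, which then phosphorylate each other and recruit adaptor proteins. PDGF-A and PDGF-C act mainly through PDGFRα, the receptor long used as a marker of skin fibroblasts and their precursors, while PDGF-B binds both receptors and PDGF-D mainly PDGFRβ. PDGF-A and PDGF-B leave the cell in active form, whereas PDGF-C and PDGF-D carry an inhibitory domain that proteases outside the cell remove. In blood vessels, PDGF-B from the endothelium recruits pericytes and smooth muscle cells that carry PDGFRβ, and in skin PDGF-A is known for its role in dermal and hair follicle growth.

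The cells came from 2 single-cell libraries, 1 per genotype, so the design held no replicates and allowed no test between genotypes. The control mice were SM22rtTA; tetO-Cre; R26-Tomato and the *SM22-SmoM2* mice were SM22rtTA; tetO-Cre; R26-SmoM2/Tomato, both 4 to 5 weeks old. In both, the *SM22α* (*Tagln*) promoter drives rtTA, so that doxycycline (20 g/kg, started on day 1 after wounding) turns on Cre and Tomato in every cell type in which that promoter has been active. In *SM22-SmoM2* mice Cre also turns on SmoM2, an active form of the Hedgehog (Hh) transducer Smoothened. Wounds of several mice, of both sexes, were pooled per library 3 days after re-epithelialization, the dermis was freed in 20 mM EDTA for 1 h according to the labels, and Tomato+ dermal cells were sorted. Genotype, library and the mice pooled in it cannot be told apart in any comparison between the libraries.

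After filtering, 2856 control cells with 30103855 transcript molecules (unique molecular identifiers, UMIs) and 1792 *SM22-SmoM2* cells with 17814222 UMIs were kept, with medians of 8607.5 and 8837.5 UMIs per cell. Cells were grouped without the 6 members and named from marker genes, so every name below stands for cells like that type. Fibroblasts made up 1090 control and 1098 *SM22-SmoM2* cells, endothelial cells 702 and 270, Schwann cells 678 and 294, muscle (mural) cells 272 and 94, immune cells 82 and 33, and keratinocytes 15 and 1. Each of these lineages had all 8 of its own markers at 10 CPM (UMIs per 1000000 UMIs) or more in both libraries, apart from the single *SM22-SmoM2* keratinocyte. In fibroblasts, 5 Hh pathway markers summed to 27.2 CPM (control) and 257 CPM (*SM22-SmoM2*). Doublets were not removed, and 143 control and 45 *SM22-SmoM2* cells held transcripts of both *Xist* and the Y chromosome. Transcripts of the Y chromosome without *Xist* were found in 1454 control and 1134 *SM22-SmoM2* cells, and *Xist* without them in 729 and 244. The mix of sexes thus differed between the libraries. All levels below are CPM of the UMIs summed over a group of cells, and all intervals are exact 95% intervals that cover counting error only.

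The promoters of members whose levels differed between the libraries in fibroblasts are given here from RefSeq on the build GRCm38.p6, as the 250 bases before the start, 5′ to 3′ on the strand of the gene. The table held 4 of the 6 members (*Pdgfa* with 2 starts, *Pdgfc*, *Pdgfd* and *Pdgfra*), and the *Pdgfa* start shown is the one farther upstream. Capitals mark matches to the TATA box letters TATAAA or the GC box letters GGGCGG on either strand. The GLI motif letters GACCACCCA, bound by the Hh effectors, were also searched on both strands.
*Pdgfa*, chr5:138994945-138995194, minus strand: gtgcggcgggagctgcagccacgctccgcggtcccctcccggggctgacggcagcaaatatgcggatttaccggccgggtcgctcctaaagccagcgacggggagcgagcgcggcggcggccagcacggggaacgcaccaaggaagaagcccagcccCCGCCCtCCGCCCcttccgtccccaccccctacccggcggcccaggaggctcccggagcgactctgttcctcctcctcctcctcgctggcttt
*Pdgfc*, chr3:81036166-81036415, plus strand: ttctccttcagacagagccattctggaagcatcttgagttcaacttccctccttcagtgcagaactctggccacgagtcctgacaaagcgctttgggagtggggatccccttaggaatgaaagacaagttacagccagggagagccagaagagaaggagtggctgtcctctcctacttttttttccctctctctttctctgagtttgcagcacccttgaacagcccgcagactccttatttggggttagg
*Pdgfd*, chr9:6168236-6168485, plus strand: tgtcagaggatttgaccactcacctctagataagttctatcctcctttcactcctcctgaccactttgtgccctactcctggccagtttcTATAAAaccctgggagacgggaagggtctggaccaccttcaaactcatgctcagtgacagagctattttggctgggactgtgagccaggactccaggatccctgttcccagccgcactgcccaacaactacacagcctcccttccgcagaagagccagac
*Pdgfra*, chr5:75152001-75152250, plus strand: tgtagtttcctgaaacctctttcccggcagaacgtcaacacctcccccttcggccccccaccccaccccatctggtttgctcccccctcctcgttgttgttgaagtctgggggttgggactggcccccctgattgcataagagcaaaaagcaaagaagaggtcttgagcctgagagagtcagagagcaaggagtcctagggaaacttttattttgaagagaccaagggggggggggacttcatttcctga
The *Pdgfd* window held 1 TATA box match and this *Pdgfa* window 2 GC box matches, while the *Pdgfc* and *Pdgfra* windows held none of the 3 motifs. None of the 4 genes' windows matched the GLI letters. Among 32851 mouse promoter windows of the same length, 12.4% held the TATA box, 32.7% the GC box and 0.225% the GLI letters. These are matches of letters, not binding sites.

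Among the lineages compared, *Pdgfa* was highest in Schwann and muscle cells. Schwann cells, the glia of the wound nerves, held 2035 of 3997 control *Pdgfa* UMIs (50.9%, 49.4 to 52.5%) and 709 of 1293 in the *SM22-SmoM2* library (54.8%, 52.1 to 57.6%), although they held 15.7% and 11.3% of all UMIs. The *Pdgfa* level was 431 CPM (412 to 450) in control Schwann cells and 351 CPM (326 to 378) in those of the *SM22-SmoM2* library. In muscle cells, the contractile cells around vessels, it was 367 CPM (340 to 396) and 296 CPM (251 to 345). Endothelial cells, with 76.1 and 82.8 CPM, and immune cells, with 61.4 and 71.1 CPM, followed. Fibroblasts had the lowest *Pdgfa* level of these lineages, 36.9 CPM (33.8 to 40.2) and 15.7 CPM (13.6 to 18.1). Neighbours in this order differed beyond counting error except endothelial and immune cells in both libraries, and Schwann and muscle cells in the *SM22-SmoM2* library. The 15 control keratinocytes, left out of this order, had 49 *Pdgfa* UMIs or 167 CPM (124 to 221).

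*Pdgfb* was an endothelial transcript. Endothelial cells held 560 of 672 control UMIs (83.3%, 80.3 to 86.1%) and 134 of 175 *SM22-SmoM2* UMIs (76.6%, 69.6 to 82.6%). Their *Pdgfb* level of 68.3 CPM (62.7 to 74.2, control) and 56.3 CPM (47.2 to 66.7, *SM22-SmoM2*) lay above every other lineage in both. Schwann cells had 13.3 and 12.4 CPM, immune cells 21.4 and 10.9 CPM from 15 and 4 UMIs, and muscle cells 8.01 and 5.61 CPM, and these neighbours did not differ beyond counting error. Fibroblasts were lowest, with 14 and 9 UMIs over all their cells, or 0.992 and 0.721 CPM.

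*Pdgfc* and *Pdgfd*, the ligands released in latent form, had different sources. Fibroblasts held 585 of 656 control *Pdgfc* UMIs (89.2%, 86.5 to 91.4%) and 298 of 326 in the *SM22-SmoM2* library (91.4%, 87.8 to 94.2%). Control fibroblasts had 41.4 CPM *Pdgfc* (38.2 to 44.9) and those with SmoM2 23.9 CPM (21.2 to 26.8), against 1.46 and 1.26 CPM in endothelial cells. In the control library it lay above the 17.6 CPM of muscle cells beyond counting error. In the *SM22-SmoM2* library it did not differ beyond counting error from immune cells (24.6 CPM, 9 UMIs) or muscle cells (11.2 CPM, 6 UMIs). *Pdgfd* UMIs lay almost evenly in fibroblasts (50.1% control, 51.1% *SM22-SmoM2*) and endothelial cells (48.2% and 47.3%). Endothelial cells had a *Pdgfd* level of 44.4 CPM (39.9 to 49.2, control) and 37.4 CPM (30.1 to 46.1, *SM22-SmoM2*), above the fibroblast level of 26.8 CPM (24.1 to 29.6) and 7.69 CPM (6.23 to 9.39) in the same libraries. Schwann cells held 3 and 1 *Pdgfd* UMIs, and muscle cells 6 and 0, the latter with an exact upper limit of 6.90 CPM.

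*Pdgfra* was nearly confined to fibroblasts, which had been named without it. They held 1109 of 1141 control UMIs (97.2%, 96.1 to 98.1%) and 1264 of 1297 *SM22-SmoM2* UMIs (97.5%, 96.4 to 98.2%). Fibroblasts had 78.6 CPM *Pdgfra* (74.0 to 83.3) in controls, and with SmoM2 the level was 101 CPM (95.8 to 107). Endothelial, muscle and Schwann cells had between 1.27 and 5.95 CPM in either library. Control immune cells had 4 UMIs (5.71 CPM) and the *SM22-SmoM2* ones 13 UMIs (35.6 CPM, 18.9 to 60.8), still below the fibroblasts beyond counting error. In immune cells 7 (control) and 8 (*SM22-SmoM2*) of the 8 fibroblast markers reached 10 CPM, with sums of 4825 and 8978 CPM, and their part in this result was not tested.

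*Pdgfrb* was highest in muscle cells, which had also been named without it. Its level there was 535 CPM (503 to 570) for the control mice and 610 CPM (545 to 680) for those with SmoM2. Fibroblasts came next with 87.1 CPM (82.3 to 92.1) and 114 CPM (108 to 120), then endothelial cells with 74.5 and 96.3 CPM. Each of these steps exceeded counting error in both libraries. The place of endothelial cells rested on cluster 14, which also carried muscle markers. Without it they had 15.2 and 17.4 CPM, below Schwann cells (31.1 and 38.2 CPM) beyond counting error in both libraries. Fibroblasts, the more numerous cells, held 40.2% of control and 68.6% of *SM22-SmoM2* *Pdgfrb* UMIs, while muscle cells held 32.8% and 15.7%. Fibroblasts themselves held 46.9% and 70.0% of all UMIs in the same libraries. With each cell thinned to 1500 UMIs, so that cells weigh equally, muscle cells held 49.8% and fibroblasts 29.9% of control *Pdgfrb* UMIs, against 27.0% and 59.7% in the *SM22-SmoM2* library.

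**Figure D1:**
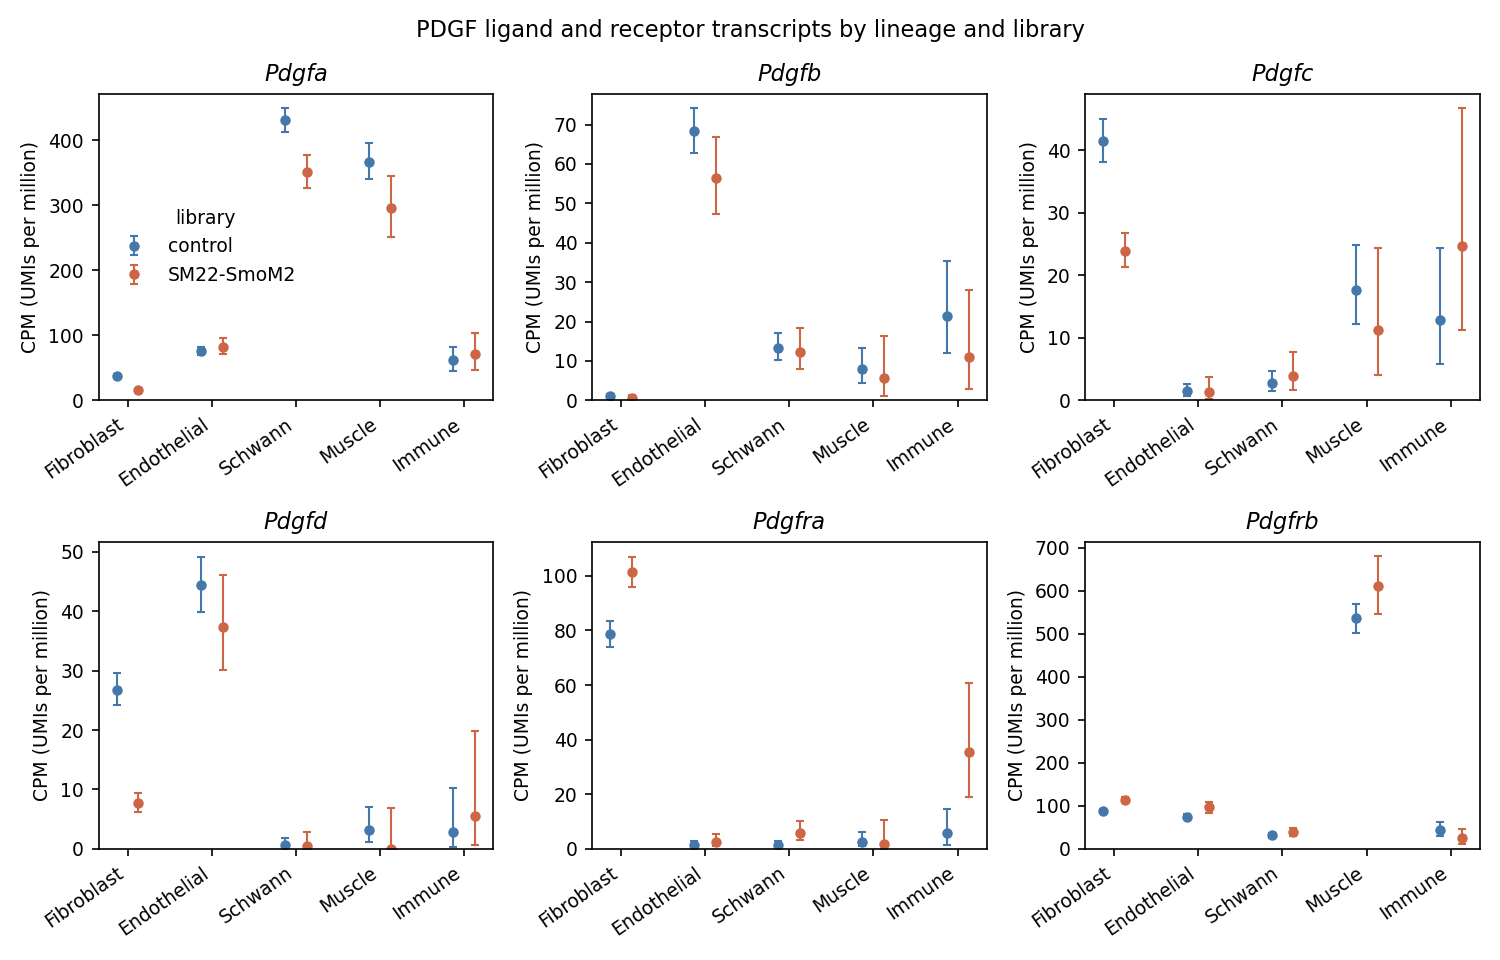
Level (CPM, y axis) of each member in 5 lineages (x axis) of the control (blue) and *SM22-SmoM2* (orange) libraries, with exact 95% counting intervals. *Pdgfa* peaks in Schwann cells at 431 and 351 CPM, *Pdgfb* in endothelial cells at 68.3 and 56.3 CPM, *Pdgfra* in fibroblasts at 78.6 and 101 CPM and *Pdgfrb* in muscle cells at 535 and 610 CPM.

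**Figure D2:**
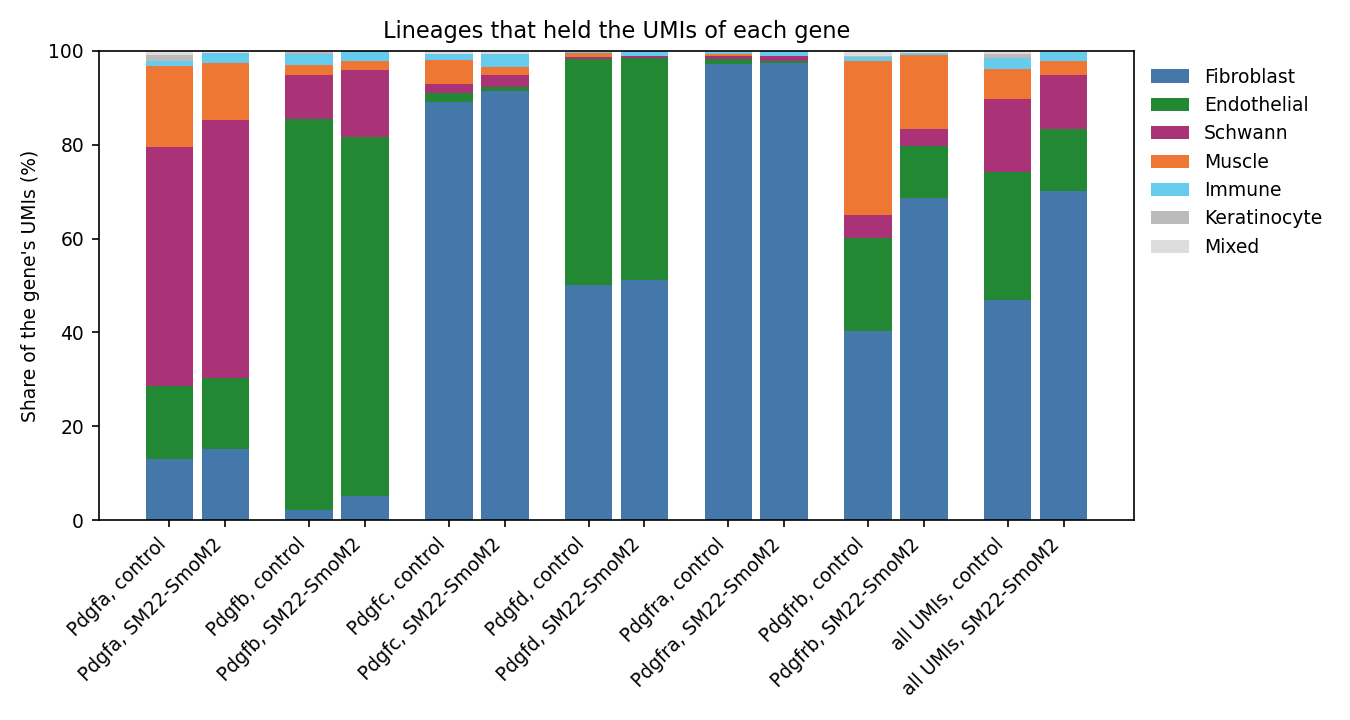
Stacked bars give the percent of the UMIs of each member (y axis) that lay in each lineage, per library, with the share of all UMIs as the last pair of bars. *Pdgfra* and *Pdgfc* bars are mostly fibroblast (97.2% and 89.2% in the control), the *Pdgfb* bars mostly endothelial (83.3%) and the *Pdgfa* bars mostly Schwann cell (50.9%).

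Between the libraries, 3 ligands were lower in *SM22-SmoM2* fibroblasts and the receptors were slightly higher. A member was called when its ratio passed 1.5-fold, among genes with at least 50 UMIs in the lineage over both libraries. Of the 11523 genes so compared in fibroblasts, 12.3% were lower and 11.8% higher past that fold, with a median log2 ratio of -0.064. Of the 6 members, 5 reached 50 UMIs, 3 of those were lower and 0 higher. *Pdgfd* fell 3.48-fold, from 378 UMIs and 26.8 CPM to 96 UMIs and 7.69 CPM (log2 -1.80, -2.14 to -1.47). *Pdgfa* fell 2.35-fold, from 521 to 196 UMIs (log2 -1.23, -1.48 to -0.99), and *Pdgfc* 1.74-fold, from 585 to 298 UMIs (log2 -0.80, -1.001 to -0.59). These intervals do not reach 0, but with 1 library each they say nothing of the spread between mice.

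The receptors differed less. In fibroblasts the log2 ratio was 0.37 (0.25 to 0.48) for *Pdgfra* and 0.39 (0.27 to 0.50) for *Pdgfrb*, both beyond counting error and both short of 1.5-fold. *Pdgfb*, with 23 UMIs in fibroblasts, was below the minimum. Beside these ratios, the 8 fibroblast markers summed to 74125 and 46378 CPM in fibroblasts of the same libraries, and *Dpt*, which encodes the matrix protein dermatopontin, was 1313 and 375 CPM. The summed markers of muscle (355 and 283 CPM), endothelial (104 and 86.4 CPM), Schwann (44.0 and 45.04 CPM) and immune cells (36.7 and 27.1 CPM) in fibroblasts, and of platelets (22.3 and 8.25 CPM), were far lower. At most 4 of the 8 markers of each of these lineages, and 1 of 4 platelet markers, reached 10 CPM there. Their part in the ratios was not tested.

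In endothelial, Schwann and muscle cells no member with at least 50 UMIs passed 1.5-fold in either direction. In Schwann cells, where 7.69% of 8614 genes were lower and 4.47% higher, the *Pdgfa* log2 ratio was -0.30 (-0.42 to -0.17). In muscle cells, with 11.8% of 5831 genes lower and 4.54% higher, it was -0.31 (-0.57 to -0.06) for *Pdgfa* and 0.19 (0.0029 to 0.37) for *Pdgfrb*. In endothelial cells, with 6.41% of 9952 genes lower and 3.17% higher, it was -0.28 (-0.56 to -0.0029) for *Pdgfb*, -0.25 (-0.60 to 0.09) for *Pdgfd*, 0.12 (-0.12 to 0.36) for *Pdgfa* and 0.37 (0.14 to 0.59) for *Pdgfrb*. Without endothelial cluster 14 these last ratios were -0.13 (-0.50 to 0.22) for *Pdgfa* and 0.20 (-0.43 to 0.79) for *Pdgfrb*. The interval of endothelial *Pdgfd* takes in both no difference and a 1.5-fold drop, so its contrast with the fibroblast ratio is one of values, not of a test. In muscle cells, smooth muscle markers summed to 4503 CPM (control) and 2056 CPM (*SM22-SmoM2*), and pericyte markers to 2646 and 2742 CPM. The part of this difference in the muscle cell ratios was not tested.

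**Figure D3:**
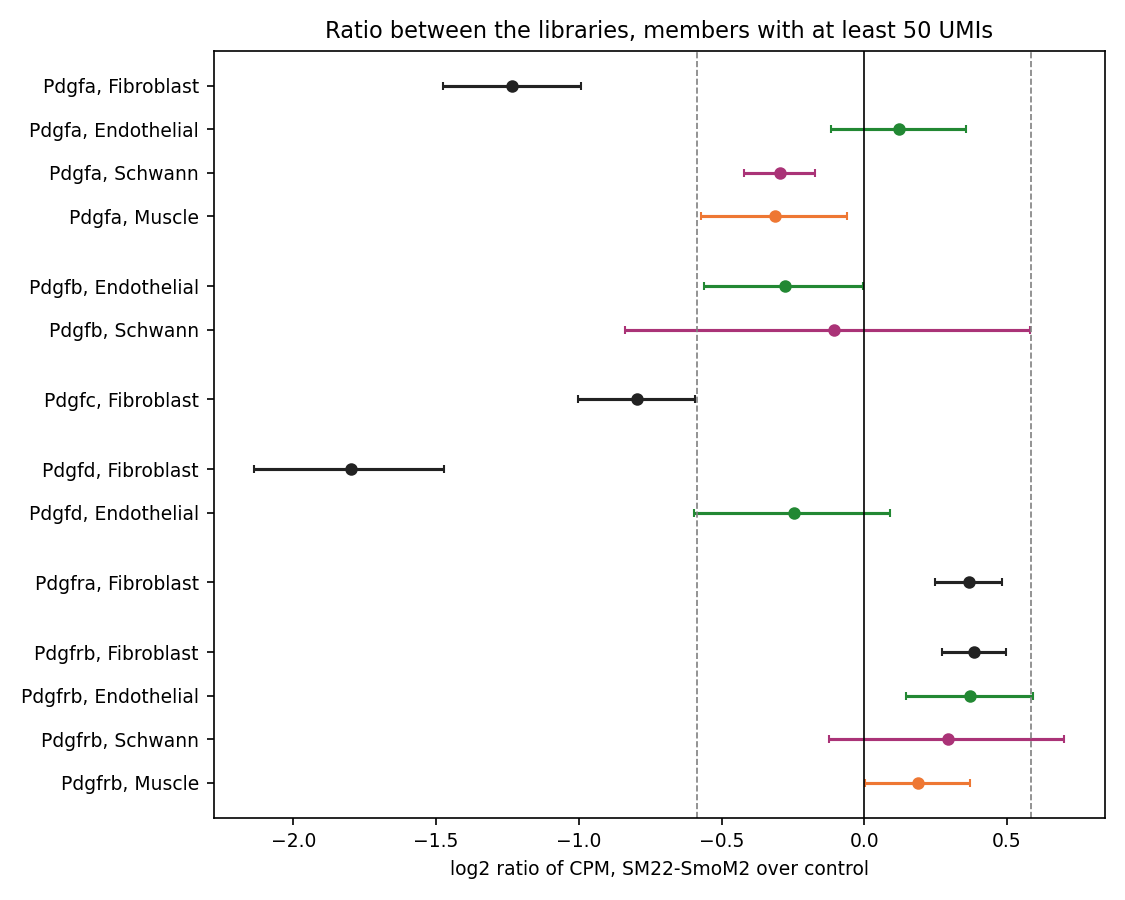
Log2 ratio of CPM, *SM22-SmoM2* over control (x axis), for each member and lineage with at least 50 UMIs (y axis, colours mark lineages), with exact 95% counting intervals and dashed lines at 1.5-fold. The 3 points left of the lower dashed line are *Pdgfd* (-1.80), *Pdgfa* (-1.23) and *Pdgfc* (-0.80) in fibroblasts.

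Sub-clusters 1, 2, 4 and 8 held 53.3% of control and 47.9% of *SM22-SmoM2* fibroblasts, and each of the others had at most 10 cells of one of the libraries. Of 15 sub-clusters, 2 that carried markers of other lineages were left out (17 control and 2 *SM22-SmoM2* cells). *Pdgfa* in control fibroblasts was highest in sub-cluster 3 (75.9 CPM, 67.5 to 85.1), with *Nov*, *Dlk1* and *Wnt2* among its leading genes, and in sub-cluster 9 (68.4 CPM, 51.7 to 88.8), with *Fbln7*, *Angptl1* and *Agtr2* among them. These held 255 and 80 control cells but 3 and 0 *SM22-SmoM2* cells. Among control sub-clusters with at least 40 cells the *Pdgfa* median was 19.1 CPM and the lowest 12.3 CPM. *SM22-SmoM2* sub-clusters ranged only from 4.86 to 33.8 CPM, so the control cells with high *Pdgfa* had no counterpart among sub-clusters of that size in the other library.

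Among sub-clusters of at least 40 cells, *Pdgfc* was highest in control sub-clusters 3 and 11 (54.8 CPM each) and in *SM22-SmoM2* sub-cluster 1 (63.6 CPM, 51.4 to 77.9), whose leading genes included *Crabp1*, *Prss35* and *Mmp11*. The 31 control cells of the cycling sub-cluster 8 had 56.5 CPM (37.6 to 81.7). It was lowest in control sub-cluster 10 (1.47 CPM, 0.037 to 8.19), led by *Thbs4*, *Trf* and *Cst6*, where *Pdgfd* was also 1.47 CPM while *Pdgfra* was 106 CPM (82.8 to 133). These 61 control cells held 1 UMI of each of the latent ligands. Control sub-cluster 13 (47 cells) was also low in both, with 4.94 CPM *Pdgfc* and 9.88 CPM *Pdgfd*, and had 133 CPM *Pdgfra*. Control *Pdgfd* was highest in sub-cluster 8 (62.6 CPM, 42.5 to 88.9) and in sub-cluster 1 (37.1 CPM, 31.1 to 44.0).

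Within sub-clusters that both libraries filled, the ligands parted. Sub-clusters 1, 2, 4 and 8 each had at least 30 cells of each library, 581 control and 526 *SM22-SmoM2* cells in all, and were averaged with equal weight, a comparison added after the data had been seen, as was pooling their UMIs. *Pdgfd* was still lower there, with 31.3 CPM (control) against 13.4 CPM (log2 -1.22), and pooled at -1.34 (-1.73 to -0.97). It fell from 37.1 to 21.7 CPM in sub-cluster 1 (log2 -0.78, -1.38 to -0.21) and from 62.6 to 9.92 CPM in sub-cluster 8 (log2 -2.66, -3.85 to -1.59). In sub-cluster 2 the values were 22.6 and 16.0 CPM, and in sub-cluster 4 they were 2.82 and 6.05 CPM, both within counting error. The *Pdgfd* values of sub-cluster 8, the farthest apart of the 4, came from 31 control and 10 *SM22-SmoM2* UMIs. Sub-cluster 4, low in *Pdgfd*, held 36 control but 212 *SM22-SmoM2* cells, so the pooled ratio also took in this difference in cell numbers. *Pdgfc* was 37.6 and 34.9 CPM over the 4 sub-clusters (log2 -0.11), no longer past 1.5-fold, although lower in sub-cluster 8 (log2 -0.79, -1.56 to -0.0083) and in the pooled UMIs (-0.31, -0.57 to -0.045). For *Pdgfa* no difference was detectable in the pooled UMIs, 113 and 97, or 15.7 and 15.1 CPM (log2 -0.052, -0.46 to 0.35). Its equal-weight mean was 11.4 CPM (control) against 14.6 CPM (log2 0.36), where control sub-clusters 4 and 8 held 2 and 3 *Pdgfa* UMIs. The *Pdgfa* ratio was -1.79 (-3.18 to -0.63) in sub-cluster 2, with *Mmp3*, *Mmp13* and *Wisp2* among its leading genes, and within counting error in the other 3. The log2 ratio of *Pdgfra* over the 4 was 0.42 with equal weights and 0.21 (0.030 to 0.38) pooled. That of *Pdgfrb* was 0.10 with equal weights and -0.23 (-0.38 to -0.081) pooled, so its direction there depended on the weighting.

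**Figure D4:**
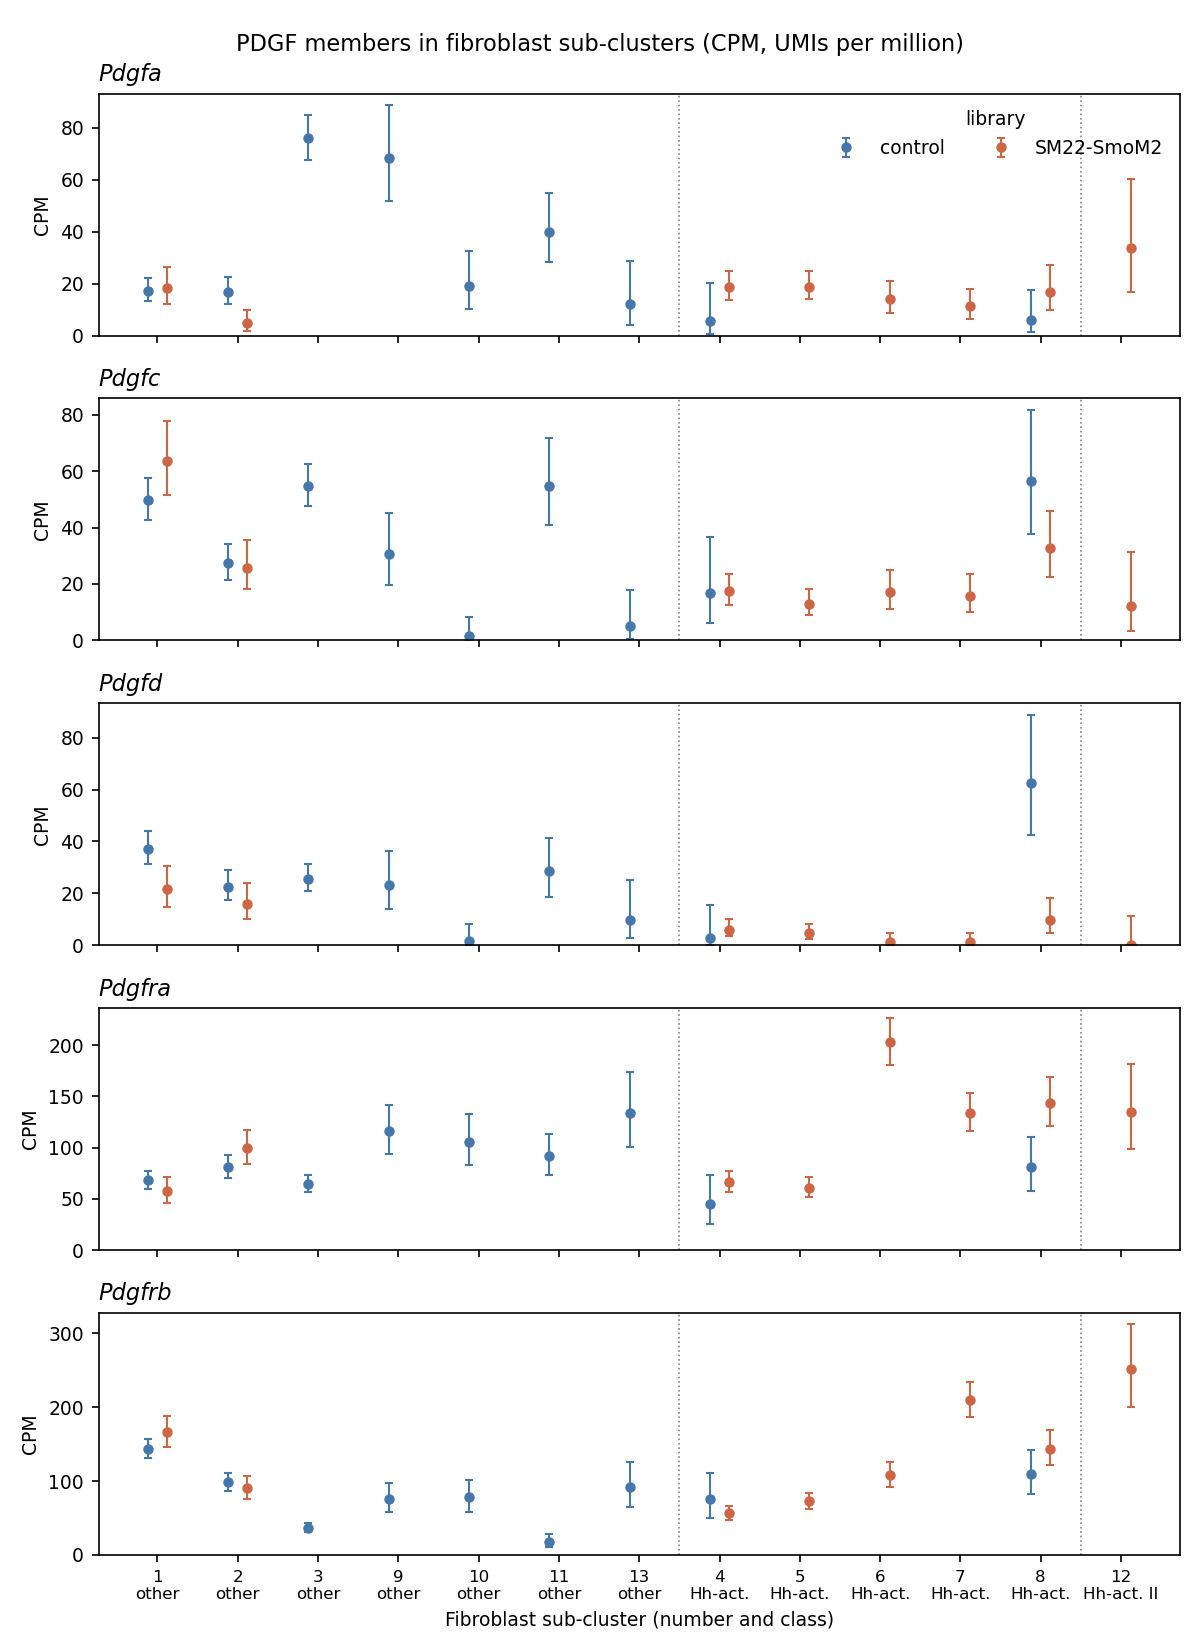
Level (CPM, y axis) of 5 members in fibroblast sub-clusters (x axis, by number and class, dotted lines part the classes) with at least 20 cells of a library, control in blue and *SM22-SmoM2* in orange, with exact 95% counting intervals. *Pdgfa* stands out in control sub-clusters 3 and 9 (75.9 and 68.4 CPM), *Pdgfra* in *SM22-SmoM2* sub-cluster 6 (203 CPM) and *Pdgfrb* in sub-clusters 7 and 12 (210 and 252 CPM).

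Inside the *SM22-SmoM2* library, fibroblasts with raised Hh markers (Hh-active-like, 804 cells) were set against the remaining 246 fibroblasts of other kinds. Under other filters and clusterings the Hh-active-like class held 541 to 766 *SM22-SmoM2* cells and 50 to 116 control cells. The 2 classes come from 1 library, but the Hh-active-like class includes sub-clusters 6, 7 and 8, where 5, 5 and 6 of 6 cycling markers were raised. These held 158, 155 and 76 *SM22-SmoM2* cells. In sub-clusters 1 and 2, with 120 and 118 of the cells of other kinds, 0 were raised. The part of the cell cycle in the ratios was not tested. Of 9922 genes, 11.4% were lower and 20.3% higher past 1.5-fold in Hh-active-like cells. *Pdgfc* was lower, 17.5 against 44.7 CPM (log2 -1.35, -1.69 to -1.01), and so was *Pdgfd*, 4.47 against 18.5 CPM (log2 -2.05, -2.67 to -1.44). Sub-cluster 1 held 94 of the 133 *Pdgfc* UMIs of the cells of other kinds, at 63.6 CPM, so this *Pdgfc* level rested largely on it. Sub-cluster 2 had 25.7 CPM *Pdgfc* (18.1 to 35.4), and Hh-active-like sub-cluster 8 had 32.7 CPM. Hh-active-like sub-clusters 4, 5, 6 and 7 were lower, with 17.3 CPM in sub-cluster 4 the highest of them. Sub-cluster 2 alone against the Hh-active-like class was not tested. Between the classes, the log2 ratio was 0.53 (-0.02 to 1.11) for *Pdgfa*, 0.46 (0.26 to 0.68) for *Pdgfra* and -0.28 (-0.45 to -0.11) for *Pdgfrb*, none past 1.5-fold. *Pdgfb* had 4 and 5 UMIs. The class also held 86 control cells, which had 37.4 CPM *Pdgfc* (26.6 to 51.1) and 30.7 CPM *Pdgfd* (21.0 to 43.3). Sub-cluster 8 held 28 of their 39 *Pdgfc* UMIs and 31 of their 32 *Pdgfd* UMIs. The control level of the class thus rested largely on the 31 control cells of sub-cluster 8. That sub-cluster had 3 of 5 Hh markers raised, the fewest that give the name, judged on the UMIs of both libraries together. The 36 control cells of sub-cluster 4 had 16.9 CPM *Pdgfc* (6.20 to 36.8) and 2.82 CPM *Pdgfd* (0.071 to 15.7), from 6 and 1 UMIs. Sub-clusters 5, 6 and 7, with 7, 10 and 2 control cells, had 1, 4 and 0 control *Pdgfc* UMIs and 0 of *Pdgfd*. Other settings moved the *Pdgfra* ratio between 0.064 and 1.11 and turned those of *Pdgfa* (to -1.001) and *Pdgfrb* (to 0.12), but left *Pdgfc* between -1.60 and -0.90 and *Pdgfd* between -2.31 and -1.72.

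The receptors varied among the Hh-active-like sub-clusters. *Pdgfra* in the *SM22-SmoM2* library was 203 CPM (181 to 226) in sub-cluster 6, with *Wif1*, *Egfl6* and *Tnmd* among its leading genes. It was 134 CPM (116 to 153) in sub-cluster 7, with *Egfl6*, *Wif1* and *Sox11*, and 60.6 CPM (51.5 to 70.9) in sub-cluster 5, led by *Areg*, *Mmp13* and *Hmox1*. *Pdgfrb* was ordered otherwise, with 210 CPM (187 to 234) in sub-cluster 7, 108 CPM (92.4 to 126) in sub-cluster 6 and 56.1 CPM (47.1 to 66.2) in sub-cluster 4, led by *Mest*, *Penk* and *Cldn1*. The 48 *SM22-SmoM2* cells of sub-cluster 12 (Hh-active II-like), whose summed UMIs passed the naming rule for all 12 markers of a second Hh-active set and whose leading genes included *Rspo3* and *Alpl*, had 252 CPM *Pdgfrb* (200 to 312), 135 CPM *Pdgfra* (98.2 to 181) and 33.8 CPM *Pdgfa* (16.9 to 60.4). Against Hh-active-like cells, their *Pdgfrb* was higher by 1.27 on the log2 scale (0.92 to 1.59) and their *Pdgfa* by 1.04 (0.0048 to 1.92), where 34.6% of 9438 genes were higher and 18.5% lower past 1.5-fold. The *Pdgfra* log2 ratio was 0.33 (-0.14 to 0.76). No control cell was in this sub-cluster, and its median of 4703.5 UMIs per cell was below the 10917.5 of Hh-active-like cells. Cluster 18, of 53 *SM22-SmoM2* cells with many of the same leading genes, scored highest on the muscle marker list (3 markers passed). It was named fibroblast because it passed all 12 markers of this second set, a rule that overrode the list score. The part of this naming in the *Pdgfrb* level was not tested.

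The control and *SM22-SmoM2* cells outside the Hh-active classes could also be compared, with 14.0% of 10462 genes lower and 5.18% higher past 1.5-fold. *Pdgfa* was lower here too (39.3 and 11.4 CPM, log2 -1.78, -2.33 to -1.28), and *Pdgfrb* was higher (84.1 and 127 CPM, log2 0.60, 0.42 to 0.77). *Pdgfd* (26.5 and 18.5 CPM, log2 -0.52, -0.96 to -0.10) was lower beyond counting error but short of 1.5-fold. *Pdgfc* (41.8 and 44.7 CPM) and *Pdgfra* (78.4 and 78.0 CPM) did not differ beyond counting error. Control sub-clusters 3, 9, 10, 11 and 13, which hold at most 3 *SM22-SmoM2* cells each, belong to this class. Their control *Pdgfrb* levels were 36.9, 75.7, 77.9, 17.9 and 91.4 CPM. In sub-clusters 1 and 2, filled by both libraries, the *Pdgfrb* log2 ratio was within counting error, 0.21 (-0.014 to 0.43) and -0.13 (-0.44 to 0.18). That of *Pdgfa* was 0.09 (-0.62 to 0.76) in sub-cluster 1 and -1.79 (-3.18 to -0.63) in sub-cluster 2. Sub-clusters 3 and 9 held 294 and 56 of the 514 control *Pdgfa* UMIs of this class.

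Endothelial ligand levels differed between clusters. In cluster 11, whose leading genes included *Cldn5*, *Rbp7* and *Gpihbp1*, *Pdgfb* was 107 CPM (94.4 to 121) in 182 control and 116 CPM (83.4 to 156) in 43 *SM22-SmoM2* cells. Capillary markers summed there to 1606 and 1242 CPM and arterial markers to 1035 and 746 CPM. *Pdgfd* was highest in this cluster too, at 87.5 CPM (75.9 to 100.4) and 85.4 CPM (58.0 to 121). In cluster 7, with *Lrg1* and *Selp* among its leading genes and venular markers at a sum of 1164 and 908 CPM, *Pdgfb* was 45.05 and 48.3 CPM and *Pdgfd* 20.9 and 27.8 CPM. *Pdgfa* followed another order, with 75.9 and 82.0 CPM in cluster 7 against 40.9 and 24.8 CPM in cluster 11. In cluster 8, led by *Ccl21a*, venular markers were about as high (1221 and 1014 CPM), lymphatic markers summed to 322 and 113 CPM, and *Pdgfb* was 55.9 CPM (45.5 to 67.9, control) and 31.2 CPM (19.8 to 46.8, *SM22-SmoM2*). *Pdgfa* in cluster 8 was 29.3 CPM (22.0 to 38.4) and 24.4 CPM (14.5 to 38.6), below cluster 7 in both libraries.

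Endothelial *Pdgfrb* rested on 1 cluster. Cluster 14, of 93 control and 44 *SM22-SmoM2* cells, had 330 and 333 CPM *Pdgfrb* and 184 and 192 CPM *Pdgfa*, while the other 3 endothelial clusters had 5.54 to 19.0 CPM *Pdgfrb*. Its cells had all 8 endothelial markers and all 8 muscle markers at 10 CPM or more. The muscle markers summed to 4139 and 4077 CPM, against 106 to 387 CPM in the other endothelial clusters, and the median depth was 15479 and 13105.5 UMIs against 5307 to 11005.5. Whether these are cells or pairs of cells in 1 droplet was not tested. Scrublet, which marks likely doublets, marked 5 of 2856 control and 11 of 1792 *SM22-SmoM2* cells over all clusters. How many of them lay in cluster 14 was not counted. Without this cluster, endothelial *Pdgfrb* was 15.2 and 17.4 CPM (control and *SM22-SmoM2*), and *Pdgfa* was 51.1 and 46.5 CPM, while *Pdgfb* (69.7 and 55.0 CPM) and *Pdgfd* (47.6 and 44.3 CPM) moved little.

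All 3 Schwann clusters carried *Pdgfa*. Cluster 3, with all 4 myelinating markers at 10 CPM or more, had 471 CPM (442 to 502, control) and 397 CPM (355 to 443, *SM22-SmoM2*). Cluster 2, in which myelinating markers were lower (437 and 285 CPM against 1204 and 1931 CPM in cluster 3), had 419 and 352 CPM *Pdgfa*. The cycling cluster 15 had 344 and 285 CPM. The *SM22-SmoM2* level was the lower one in each of the 3, by less than 1.5-fold.

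**Figure D5:**
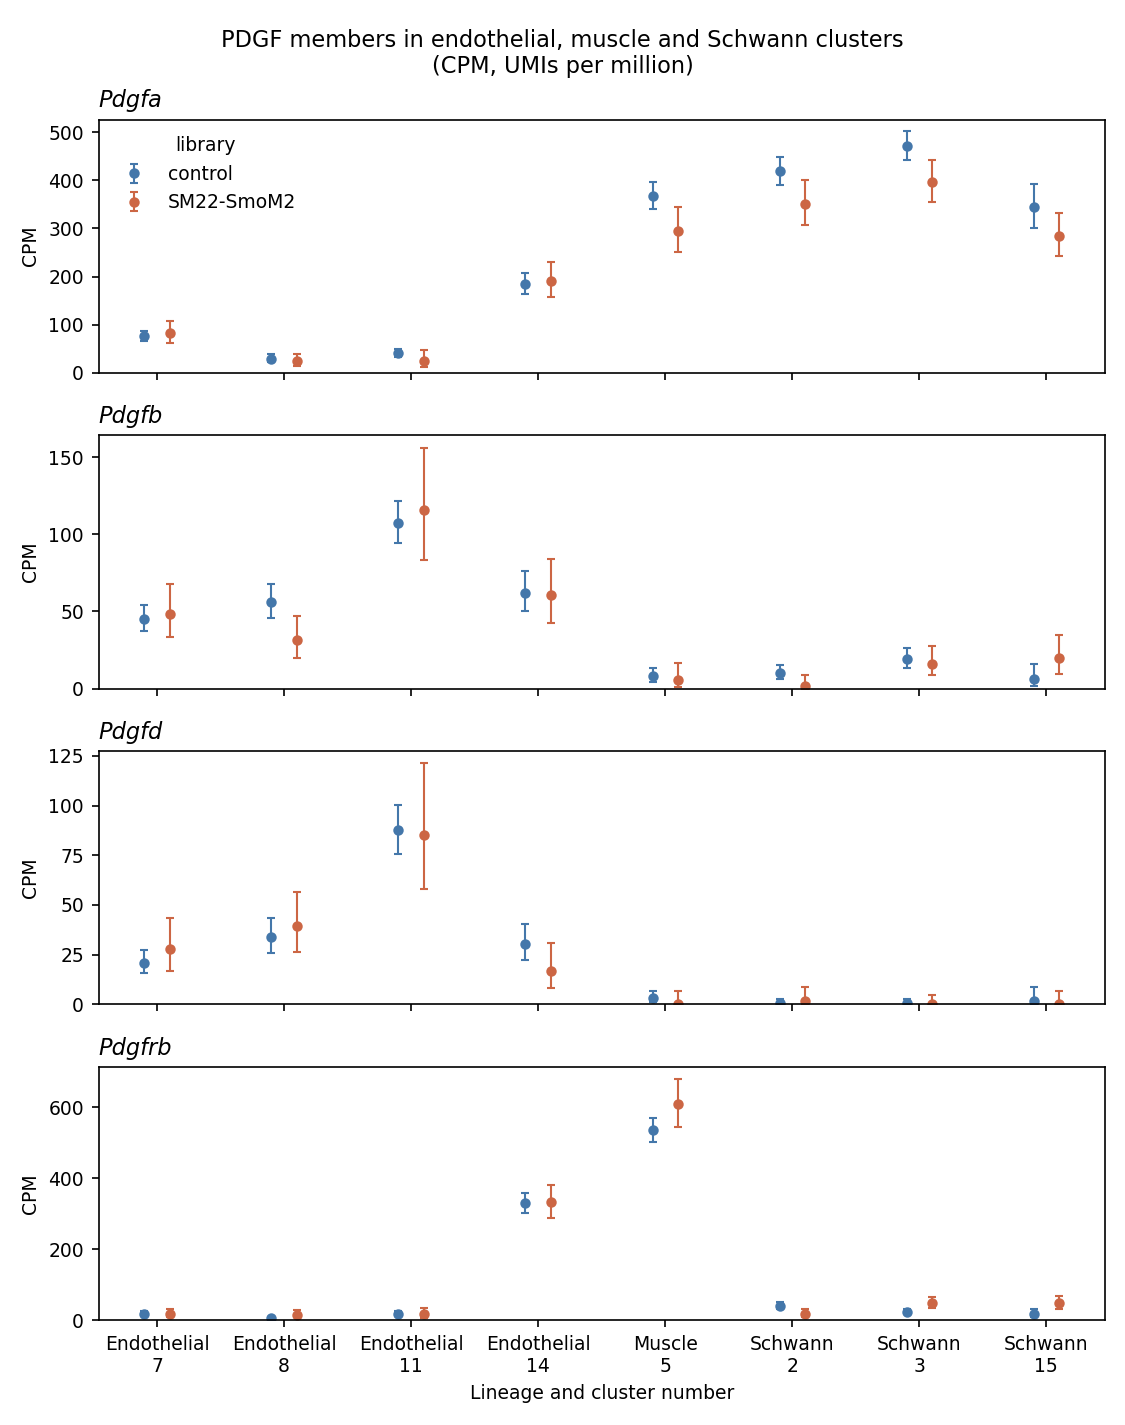
Level (CPM, y axis) of 4 members in the endothelial, muscle and Schwann clusters (x axis, by lineage and number), control in blue and *SM22-SmoM2* in orange, with exact 95% counting intervals. *Pdgfb* and *Pdgfd* peak in endothelial cluster 11 (107 and 87.5 CPM in the control), and *Pdgfrb* is at 330 CPM in endothelial cluster 14 against 19.0 CPM or less in the control cells of the other endothelial clusters.

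In single cells the members were sparse. After each cell was thinned to 1500 UMIs, 12.02% of control and 14.3% of *SM22-SmoM2* fibroblasts had a *Pdgfra* UMI, against 0.285% and 0% of endothelial cells, where 0 of 270 cells has an exact upper limit of 1.36%. At full depth, with medians of 12473 and 10947.5 UMIs per fibroblast and 9424 and 7262.5 per endothelial cell, 55.2% and 57.1% of fibroblasts had one. A *Pdgfrb* UMI was found in 54.8% of control and 60.6% of *SM22-SmoM2* muscle cells and in 11.3% and 14.9% of fibroblasts, and in 3.54% and 5.10% of Schwann cells. *Pdgfa* was found in 44.2% and 37.8% of Schwann cells and 43.0% and 30.9% of muscle cells, against 4.86% and 1.37% of fibroblasts, where its level was lowest.

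Both receptors were found in 1.74% of control and 1.91% of *SM22-SmoM2* fibroblasts at 1500 UMIs, and in 30.8% and 31.6% at full depth. At 1500 UMIs, 14.5% (8.96 to 21.7%) of control fibroblasts with *Pdgfra* also had *Pdgfrb*, against 10.8% (8.95 to 12.99%) of those without it. In the *SM22-SmoM2* library these shares were 13.4% and 15.2%, so neither library showed a difference beyond counting error at this depth. At full depth, which differs between cells, *Pdgfrb* was found in 55.8% (51.7 to 59.8%) of control fibroblasts with *Pdgfra* and 48.4% (43.8 to 52.9%) of those without. In *SM22-SmoM2* fibroblasts these full-depth shares were 55.3% (51.4 to 59.3%) and 43.5% (39.0 to 48.1%), whose intervals do not overlap. In muscle cells at 1500 UMIs *Pdgfa* and *Pdgfrb* were found together in 70 of 272 control and 17 of 94 *SM22-SmoM2* cells. *Pdgfrb* was found in 59.8% of control muscle cells with *Pdgfa* and 51.0% of those without, and in 58.6% and 61.5% in the other library, with overlapping intervals. In control endothelial cells 19.7% (10.6 to 31.8%) of those with *Pdgfa* also had *Pdgfrb* and 5.15% (3.57 to 7.15%) of those without, with the cells of cluster 14 included.

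The surrounding pathway was described by a list of 38 genes. In fibroblasts 37 were measured well enough, of which 6 were higher and 7 lower past 1.5-fold and 24 neither, with a median log2 ratio of -0.061, beside -0.064 over all genes. Over all genes 11.8% were higher and 12.3% lower past that fold. Of the genes that process or bind the ligands, 4 of 7 were below the fold and 0 above it, with a median of -0.77, where 12.3% of all genes were lower. The 4 were *Plat* (407 and 208 CPM, log2 -0.97) and *Plau* (5.74 and 1.92 CPM, log2 -1.58), which encode the plasminogen activators that can cleave latent PDGF-C and PDGF-D, *Sparc* (22041 and 12083 CPM, log2 -0.87), whose matrix protein binds PDGF-B, and *Pdgfrl* (388 and 228 CPM, log2 -0.77), a receptor-like gene. *Furin*, the convertase that cuts the PDGF-A and PDGF-B precursors, was 56.0 and 52.6 CPM (log2 -0.09, -0.24 to 0.061), and the co-receptor gene *Nrp1* had a log2 ratio of 0.13 (0.028 to 0.24). The list genes were not compared within the sub-clusters that both libraries filled. The part of the differing fibroblast sub-clusters in these ratios was thus not tested.

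Among adaptors and effectors, 2 of 14 were higher and 0 lower. Over all genes in fibroblasts 11.8% were higher and 12.3% lower, the shares to set beside each fibroblast group here. The 2 higher genes were *Gab1* (9.07 and 20.5 CPM, log2 1.18) and *Nck2* (1.06 and 3.85 CPM, log2 1.86), both docking or adaptor proteins of receptor signaling. Of 9 negative regulators, 3 were higher, the phosphatase gene *Ptpn1* (log2 0.66), the ubiquitin ligase gene *Cblb* (0.84) and the cytokine signaling suppressor *Socs1* (0.66), and the receptor phosphatase gene *Ptprj* was lower (-1.42). Of 7 genes induced by PDGF in cultured fibroblasts, *Myc* was higher (73.7 and 176 CPM, log2 1.25), and the chemokine genes *Ccl2* (960 and 556 CPM, log2 -0.79) and *Ccl7* (438 and 122 CPM, log2 -1.84) were lower, while *Fos* and *Egr1* had log2 ratios of 0.26 and 0.41 below the fold. The list thus moved in both directions. In endothelial cells 1 of 34 list genes was higher and 1 lower, where 3.17% and 6.41% of all genes were. In Schwann cells 0 of 33 were higher and 5 lower (4.47% and 7.69% of all genes), and in muscle cells 0 of 29 and 2 (4.54% and 11.8%).

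The genes whose levels most followed each member over 19 clusters of at least 20 cells, both libraries summed, were picked among 12015 genes by Pearson's r of log2(CPM + 10). The clusters share libraries and differ in depth, so r is a description only. *Pdgfra* ran with *Osr2* (r = 0.96), *Srpx* (0.95) and *Prrx2* (0.95), and *Pdgfrb* with *Sema5a* (0.93), *Pcdh18* (0.93) and *Ednra* (0.91). *Pdgfb* ran with *Gbp9* (0.97), *Map3k11* (0.97) and *Plxnd1* (0.95), *Pdgfa* with *Pelo* (0.91), *Map2* (0.91) and *Cobll1* (0.90), *Pdgfc* with *Dpt* (0.90), *Mdga1* (0.88) and *Itgb5* (0.86), and *Pdgfd* with *Apol9b* (0.93), *Zdhhc12* (0.91) and *Lpin3* (0.89). Of these 18 pairs, 10 were shared when 1 CPM was added in place of 10 and 9 when cells were split into 30 clusters.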

How the data were processed

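The deposited values are raw counts of UMIs for each gene in each cell, which the authors made with Cell Ranger after bcl2fastq, aligned to the mouse build mm10, with no normalization. Versions, the annotation and the strand counted are not given in the sources used here, so reads of antisense genes that overlap *Pdgfa*, *Pdgfb*, *Pdgfc* and *Pdgfra*, and of *Ddi1* inside *Pdgfd*, cannot be told apart if strand was ignored. The barcode list holds all 737280 codes of the kit, so cell barcodes shared by the libraries were not counted from it. Because reads come from the 3′ end, levels were not compared between genes.

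Cells with fewer than 200 genes or over 10% mitochondrial UMIs were left out (22 control and 10 *SM22-SmoM2* barcodes). Counts scaled to 10000 per cell were log-transformed, and k-means (K = 20, and 15 for fibroblasts, each from 50 starts) grouped the cells by 20 principal components that rested on 2000 variable genes (scanpy 1.11.5, scikit-learn 1.9.0), leaving out the 6 members, the pathway list and 21 genes of the Hh, DP and Wnt sets. Clusters were named from at least 3 markers that reached both 10 CPM and 1.5-fold over the clusters' median, Hh-active-like sub-clusters 3 of 5 Hh markers, and Hh-active II-like ones more than 6 of 12 further markers. A cluster of all cells that passed more than 6 of these 12 was named fibroblast whichever lineage list scored highest. Sub-clusters with 2 or more markers of another lineage among their top 10 genes, and more of these than of fibroblasts, were left out as mixed. UMIs were summed per group and library. Levels carry exact Poisson, shares Clopper-Pearson and ratios exact conditional 95% intervals, with 3 UMIs in place of a count of 0 and no ratio where both counts were at or under 3. Genes were called past 1.5-fold with at least 50 UMIs, and the list genes named also had an interval without 0. For profiles, the 3 genes with the highest r among those with at least 100 UMIs are named. The calculations were tested on simulated counts with counting error alone, so spread between cells or mice was not part of that test. The members, lists and rules were chosen with earlier results of these data known, and some genes are not reported here.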

Additional observations from a re-analysis of the deposited data

How the results depend on the processing

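No paired analysis was possible because each genotype had 1 library and no replicate numbers to pair. Depth limits *Pdgfb* in fibroblasts and every member in immune cells and keratinocytes. Of 171 ratios between the libraries under alternative settings, 151 stayed within the interval of the value reported, and 5 had the other sign. For ratios within *SM22-SmoM2* fibroblasts these counts were 47 and 4 of 60. Only 2 of the 5 and 2 of the 4 were ratios whose reported interval excluded 0, called reversed below. Of 112 levels 106 stayed within the interval and 6 left it. The causes were not tested, other than those the settings themselves set (fewer cells or fewer UMIs).

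In sub-clusters shared by both libraries, chosen with the data already seen, the equal-weight fibroblast log2 ratio reversed to 0.36 for *Pdgfa*, which rested on 2 and 3 control UMIs in sub-clusters 4 and 8, and was -0.11 for *Pdgfc*, -1.22 for *Pdgfd*, 0.10 for *Pdgfrb* and, within its interval, 0.65 for *Pdgfb*. With the UMIs of these sub-clusters pooled, also added then, it was -0.052 (-0.46 to 0.35) for *Pdgfa*, 1.17 for *Pdgfb* (4 and 8 UMIs), -0.31 for *Pdgfc*, -1.34 for *Pdgfd* and 0.21 for *Pdgfra*, and reversed to -0.23 for *Pdgfrb*. Without the endothelial cluster with muscle markers, also chosen then, that of endothelial *Pdgfa* was -0.13. With male cells alone, *Pdgfrb* had 0.58 in fibroblasts and 0.40 in muscle cells. Without barcodes marked by Scrublet, which marked 5 control and 11 *SM22-SmoM2* barcodes, fibroblast *Pdgfb* had -2.62.

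The log2 ratio of Hh-active-like over other *SM22-SmoM2* fibroblasts moved for *Pdgfra* to 0.064 with a 5% mitochondrial filter, 0.091 without that filter, 0.12 without barcodes marked by Scrublet, 0.20 with K = 12 and 10, 0.072 with K = 30 and 20 and 1.11 with cells thinned to 1500 UMIs. Without barcodes that held transcripts of both sexes it was -0.14 for *Pdgfa*, -0.94 for *Pdgfc* and reversed to 0.067 for *Pdgfrb*. With all genes allowed in clustering it was -0.90 for *Pdgfc* and reversed to 0.12 for *Pdgfrb*, which had -0.48 under Leiden clustering, and with K = 12 and 10 it was -1.001 for *Pdgfa*, whose fibroblast ratio between the libraries was then -0.98.

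Thinning each cell to 1500 UMIs, which weighs cells equally, gave library ratios of -1.86, -2.15 and 0.50 for *Pdgfa*, *Pdgfd* and *Pdgfrb* in fibroblasts, -0.58 for endothelial *Pdgfb* and -0.75 for *Pdgfa* in muscle cells, the last then past 1.5-fold. Thinned levels were 58.9 and 39.5 CPM for endothelial *Pdgfb* (control and *SM22-SmoM2*), 86.9 and 111 CPM for *Pdgfra* and, in the *SM22-SmoM2* library, 20.6 CPM for fibroblast *Pdgfc* and 29.6 CPM for endothelial *Pdgfd*. Thinned shares of UMIs were 57.7% and 65.4% for *Pdgfa* in Schwann cells, 85.5% and 85% for *Pdgfc* in fibroblasts, 49.8% and 27.0% for *Pdgfrb* in muscle cells and 72.9% for control *Pdgfb* in endothelial cells.

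Shares of UMIs also moved with the clustering. With K = 12 and 10, Schwann cells held 49.1% and 48.6% of *Pdgfa* and muscle cells 36.7% and 18.2% of *Pdgfrb*. Under Leiden clustering, control Schwann cells held 49.3% of *Pdgfa*, control fibroblasts 86.3% of *Pdgfc*, and fibroblasts 92.6% and 95.6% of *Pdgfra*. Control muscle cells held 35.04% of *Pdgfrb* with all genes allowed in clustering and 26.6% with a 5% mitochondrial filter. At 3000 UMIs per cell, 21.9% and 26.3% of fibroblasts had *Pdgfra* and 5.23% and 7.23% both receptors. Without thinning these were 55.2% and 57.1%, and 30.8% and 31.6%. Past 2-fold, 3 pathway genes were higher and 3 lower in fibroblasts. The share of all genes past 2-fold was not calculated, so these 2 counts cannot be set against a background. Of the 18 pairs of like profile, 10 and 9 were shared with 1 CPM added and with K = 30.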
